A study of Mus musculus with 24 samples.

Results

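The loss of Ptk6 was examined in the distal jejunum of male mice that drank succinate, by poly(A) RNA sequencing. The 6 libraries compared are 3 wild type and 3 Ptk6-/- males, chosen from the 24 libraries of the series by sex, genotype and treatment as labelled. Both groups received 100 mM succinate in the drinking water for 7 days, so the groups are labelled as differing in genotype alone. The Ptk6-/- line is a germline knockout on the C57BL/6 background, lacking the gene in every cell and not only in the epithelium, and the mice were age-matched young adults from different litters of 1 colony. Each library came from 1 mouse, and the whole tissue was used, so that epithelium, muscle, nerve, lymphoid tissue and blood all contribute RNA. The remaining 18 libraries cover female mice and mice on regular water. They enter only where the male succinate result is set beside them.

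PTK6 is an intracellular tyrosine kinase of a small family with FRK and SRMS, found mainly in differentiating epithelial cells of the gut and skin. Succinate in the gut lumen is sensed by SUCNR1 on tuft cells, chemosensory epithelial cells that signal through TRPM5 and release IL-25 and cysteinyl leukotrienes. IL-25 acts on type 2 innate lymphoid cells, whose IL-13 returns to the crypt through STAT6, raises the output of tuft and goblet cells and induces epithelial genes such as the gasdermin C family and Retnlb. IL-22 acts on the same epithelium through STAT3 and induces the antimicrobial lectins Reg3b and Reg3g.

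The promoters of 4 genes that carry much of what follows are shown, a pair whose levels were lower in the Ptk6-/- males (Gsdmc3 and Pla2g4c) and a pair whose levels were higher (Reg3b and Reg3g). Each is the 250 bases before the annotated start in RefSeq, build GRCm38.p6, read 5′ to 3′ on the gene's strand. They lie at chr15:63878559-63878808 (minus) for Gsdmc3, chr7:13325417-13325666 (plus) for the first of 2 Pla2g4c entries, chr6:78370635-78370884 (plus) for Reg3b and chr6:78468875-78469124 (minus) for Reg3g. Capitals mark matches on either strand to TTCNNNNGAA (a STAT6-type palindrome), TTCNNNGAA (the general STAT palindrome) or TATAAA.
Gsdmc3: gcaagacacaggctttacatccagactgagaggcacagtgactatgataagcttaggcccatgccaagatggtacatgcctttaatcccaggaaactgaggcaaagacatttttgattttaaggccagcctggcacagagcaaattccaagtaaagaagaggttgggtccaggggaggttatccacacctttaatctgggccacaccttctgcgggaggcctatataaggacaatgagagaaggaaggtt
Pla2g4c: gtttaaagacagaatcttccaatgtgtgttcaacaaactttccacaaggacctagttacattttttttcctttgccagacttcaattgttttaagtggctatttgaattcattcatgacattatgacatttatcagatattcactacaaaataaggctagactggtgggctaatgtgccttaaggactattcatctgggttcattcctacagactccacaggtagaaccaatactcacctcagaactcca
Reg3b: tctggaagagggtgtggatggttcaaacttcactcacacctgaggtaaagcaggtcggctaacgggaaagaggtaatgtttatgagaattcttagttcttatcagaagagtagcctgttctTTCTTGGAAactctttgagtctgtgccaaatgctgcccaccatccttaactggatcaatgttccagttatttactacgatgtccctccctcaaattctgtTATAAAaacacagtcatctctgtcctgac
Reg3g: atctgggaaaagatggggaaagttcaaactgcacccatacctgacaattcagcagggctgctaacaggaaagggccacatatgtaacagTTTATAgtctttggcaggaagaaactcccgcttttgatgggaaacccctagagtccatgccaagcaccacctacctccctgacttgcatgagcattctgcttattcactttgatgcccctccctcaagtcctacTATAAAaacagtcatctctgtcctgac
The Gsdmc3 and Pla2g4c windows held none of the 3 motifs. Ang4, also lower, had TTCNNNGAA 192 bases before its start, and Saa1, which was higher, had none. Sprr2a3, whose groups overlapped and which was not called by edgeR or DESeq2, had both STAT palindromes (176 and 249 bases before its start). Reg3b held TTCTTGGAA 129 bases before the start and TATAAA 29 bases before it, and Reg3g held TTTATA and TATAAA, 161 and 27 bases before its start. The Reg3b and Reg3g windows both end in the same 20 bases, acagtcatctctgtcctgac. Among 32851 promoter windows of this length, TTCNNNNGAA was found in 5.85%, TTCNNNGAA in 7.02% and TATAAA in 12.4%. Promoter entries were matched for 11 of the 16 genes looked up, and a match of letters is a description of the window only.

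The 6 libraries were not of equal quality. Total counts were 42784450 to 52824743 in the wild type males, but 8080321, 33690435 and 42156956 in Ptk6-/- replicates 1, 2 and 3. In Ptk6-/- replicate 1, 29.7% of the counts (95% Wilson interval 29.68 to 29.74%, counting error only) fell on Rn18s-rs5, an 18S ribosomal RNA gene, and 12361 genes reached 10 counts, against 18484 to 19774 in the other 5 libraries. Across genes, the correlation of this library's log2 levels with the others was 0.81 to 0.85. Wild type replicate 1 correlated better with Ptk6-/- replicates 2 and 3 (0.958 and 0.965) than with wild type replicates 2 and 3 (0.922 and 0.927). The dependence of counts on gene length followed the same split. Over genes, the log2 level changed per doubling of length by 0.410 in wild type replicate 1 and by 0.310 and 0.293 in Ptk6-/- replicates 2 and 3, but by 0.106 and 0.136 in wild type replicates 2 and 3 and by 0.00994 in Ptk6-/- replicate 1. Results below are over the 6 libraries, and the counts of calls, many list medians and many genes are also given without Ptk6-/- replicate 1. Levels are given as CPM, read counts relative to library size after TMM scaling of the 6 libraries, and fold changes are log2 of Ptk6-/- over wild type with the standard error of the fit.

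A group of low genes separated libraries in a way that crossed the genotypes. There were 23 genes with no count in any of the 3 Ptk6-/- succinate males and at least 10 counts in every wild type succinate male. Clec4g, a lectin of sinus endothelium, led them with 382 to 575 counts in the wild type succinate males. The same gene had 396 to 645 counts in 5 of the 6 control males, which include all 3 Ptk6-/- controls, and 4 counts in wild type control replicate 1, a library of 22826652 counts with 51.2% on Rn18s-rs5. It had at most 4 counts in any succinate-treated female. Of the 23 genes, 9 were above 3 counts in each of those 5 control males, 19 were at 3 counts or fewer in wild type control replicate 1, and 5 were at 3 counts or fewer in all 6 succinate-treated females. The Ptk6-/- genotype was thus present both in libraries with and in libraries without this RNA. No batch, dissection or extraction date is labelled, and for such genes a genotype effect and a library effect cannot be told apart.

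Ptk6 itself was near absent in the knockout. It stood at 39.2, 19.4 and 27.6 CPM in the wild type males and at 1.87, 0.468 and 0.601 CPM in the Ptk6-/- males, a log2 fold change of -5.25 ± 0.60. All 3 Ptk6-/- libraries lay below every wild type library, with a few reads remaining over the locus on chromosome 2 (180835514 to 180844582, minus strand, GRCm39). Frk, the closest relative, had 65.7, 33.4 and 46.0 CPM in wild type and 36.3, 109 and 94.8 CPM in Ptk6-/-. These overlapped, through the shallow replicate 1, and the log2 fold change was 0.73 ± 0.45 (1.04 without that library). Srms, which lies beside Ptk6, was under 1 CPM in every library, with 0.391, 0.987 and 0.242 CPM in wild type and 0, 0 and 0.160 CPM in Ptk6-/-.

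Across the table, 18904 of 56691 genes were tested, those that reached 10 counts in 3 or more libraries. No gene was called by edgeR's quasi-likelihood test (0%, Benjamini-Hochberg adjusted p under 0.05 with a fold of at least 2), and the smallest adjusted p was 0.132, for Clec4g. Ptk6, the deleted gene, was itself not called by edgeR (adjusted p = 0.141), while DESeq2 gave it an adjusted p of 1.08e-13. The lack of edgeR calls therefore does not show that no gene differed. At an unadjusted p under 0.05 there were 514 genes (2.72%), of which 207 were higher and 307 lower in Ptk6-/-. Without Ptk6-/- replicate 1, edgeR called 2 of 18856 genes (0.0106%), Clec4g lower (adjusted p = 0.039) and the immunoglobulin heavy chain variable segment Ighv1-18 higher (adjusted p = 0.0139). DESeq2, run on the same 6 libraries and with the same thresholds, called 67 genes (0.354%), 16 higher and 51 lower, and 138 genes without Ptk6-/- replicate 1 (0.732%). Of the 67 genes, 60 were called both ways, and the 7 lost without that library were Saa1, Pla2g4c, Tnnc1, H2bc3, H4c4, Ighv7-3 and Gm26444. Another tool, limma voom with quality weights, which gives less weight to libraries that stand apart, called 1799 genes (9.52%), 929 higher and 870 lower, and 1946 (10.3%), 920 higher and 1026 lower, without Ptk6-/- replicate 1. Calls below are those of edgeR and DESeq2 unless voom is named. The libraries of the groups did not overlap for 574 genes higher (3.04%) and 1095 genes lower (5.79%) in Ptk6-/-. Without Ptk6-/- replicate 1 this held for 2337 genes higher (12.4%) and 1807 genes lower (9.56%). An exact two-sided permutation test over 3 against 3 mice cannot give a p below 0.1, the value it takes for each gene without overlap. The median log2 fold change over all genes was -0.0295.

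**Figure D1:**
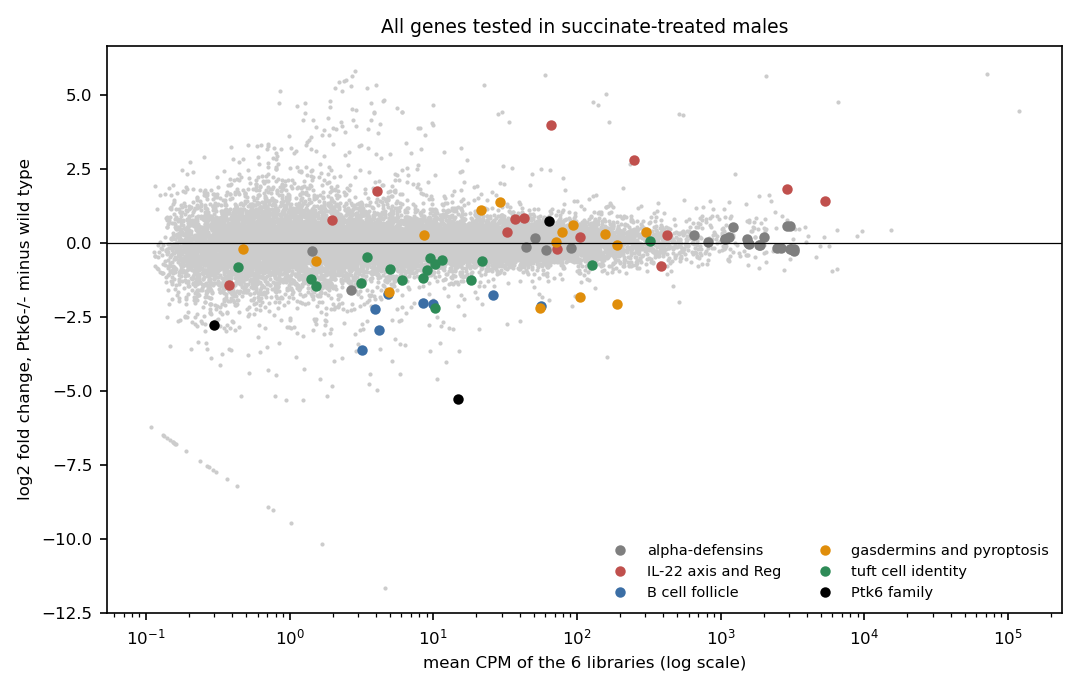
Log2 fold change of Ptk6-/- over wild type in succinate-treated males against mean CPM over the 6 libraries (log axis), 1 point per tested gene (n = 18904), with 6 gene lists in colour. Ptk6 lies at -5.25, the B cell follicle genes all lie below 0, and Saa1 is the highest coloured point at 3.97. The grey diagonal at the lower left is formed by genes with no count in Ptk6-/-, whose fitted fold depends on the prior count.

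The gasdermin C cluster was lower in Ptk6-/- males. Gasdermin C proteins are pore formers of the gut epithelium. Gsdmc3 (chromosome 15, 63729573 to 63750407, minus strand, GRCm39) had 101, 50.5 and 121 CPM in wild type and 10.1, 17.4 and 31.9 CPM in Ptk6-/-, a log2 fold change of -2.18 ± 0.50. Gsdmc4 had 246, 198 and 478 CPM in wild type and 39.5, 60 and 120 CPM in Ptk6-/-. Gsdmc2 had 151, 97.4 and 243 CPM in wild type and 34.1, 34.5 and 70.7 CPM in Ptk6-/-. In all 3 genes every Ptk6-/- library was below every wild type library, and in each of the 2 groups replicate 3 was the highest. DESeq2 called Gsdmc3 and Gsdmc4 lower (adjusted p = 0.0177 and 0.0411) and missed Gsdmc2 (0.0644), while edgeR called none. Without Ptk6-/- replicate 1 the log2 fold changes were -1.91 for Gsdmc3, -1.79 for Gsdmc4 and -1.66 for Gsdmc2. The fourth member, Gsdmc, ran from 4.93 to 11.8 CPM in wild type and from 0 to 4.55 CPM in Ptk6-/-. These paralogs are near-identical and neighbours, so how reads were divided among them is uncertain.

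The rest of the gasdermin and pyroptosis list did not follow the cluster. Of the 11 other genes tested, 8 were higher and 3 lower (Il1b, Nlrp3 and Nlrp6), and the median over all 15, the cluster included, was 0.0252. Casp4, the caspase that detects cytosolic lipopolysaccharide and cleaves gasdermin D, had 21.5, 13.8 and 13.1 CPM in wild type and 31.7, 55.5 and 38.7 CPM in Ptk6-/- (log2 1.39 ± 0.34). Il18, a cytokine matured by inflammasome caspases, had 10.4, 13.1 and 17.2 CPM in wild type and 36.3, 22.0 and 31.1 CPM in Ptk6-/- (log2 1.13 ± 0.33). Both were higher in each Ptk6-/- library than in any wild type library, and neither was called by edgeR or DESeq2 over the 6 libraries. Without Ptk6-/- replicate 1 DESeq2 called Casp4 higher but not Il18 (log2 1.51 and 0.94 in edgeR). Gsdmd itself had 186, 319 and 293 CPM in wild type and 328, 365 and 338 CPM in Ptk6-/-, without overlap but with a log2 fold change of 0.37.

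Pla2g4c, a cytosolic phospholipase A2 that frees fatty acids from membrane phospholipids, showed the widest gap among the genes of eicosanoid synthesis. The gene (chromosome 7, 13058580 to 13094597, plus strand, GRCm39) had 94.7, 106 and 702 CPM in wild type and 19.2, 2.86 and 40.3 CPM in Ptk6-/-, a log2 fold change of -3.85 ± 1.13. The groups did not overlap, and the highest wild type library was replicate 3, as in the gasdermin C cluster. DESeq2 called it lower (adjusted p = 0.0171) over the 6 libraries but not without Ptk6-/- replicate 1, where the log2 fold change was -3.81. Wild type replicate 3 weighed more, as the edgeR value ran from -4.82 to -2.28 when each library was left out, with -2.28 without that one. Alox5, the 5-lipoxygenase that starts leukotriene synthesis, had 3.53, 3.77 and 4.76 CPM in wild type and 0, 1.12 and 2.34 CPM in Ptk6-/-. Its activating protein Alox5ap had 4.43, 9.10 and 9.83 CPM in wild type and 3.20, 1.27 and 4.09 CPM in Ptk6-/-. Neither overlapped between groups and neither was called by edgeR or DESeq2, while voom called both lower. Their edgeR log2 fold changes were -1.61 and -1.46, or -1.24 and -1.56 without Ptk6-/- replicate 1. Of the 10 genes of the list, 8 were lower and 2 higher, with a median of -0.72 that moved to -0.36 without Ptk6-/- replicate 1. The prostaglandin genes Ptgs1, Ptgs2, Ptges and Hpgds had log2 fold changes of -0.30, -0.79, 0.15 and 0.03.

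**Figure D2:**
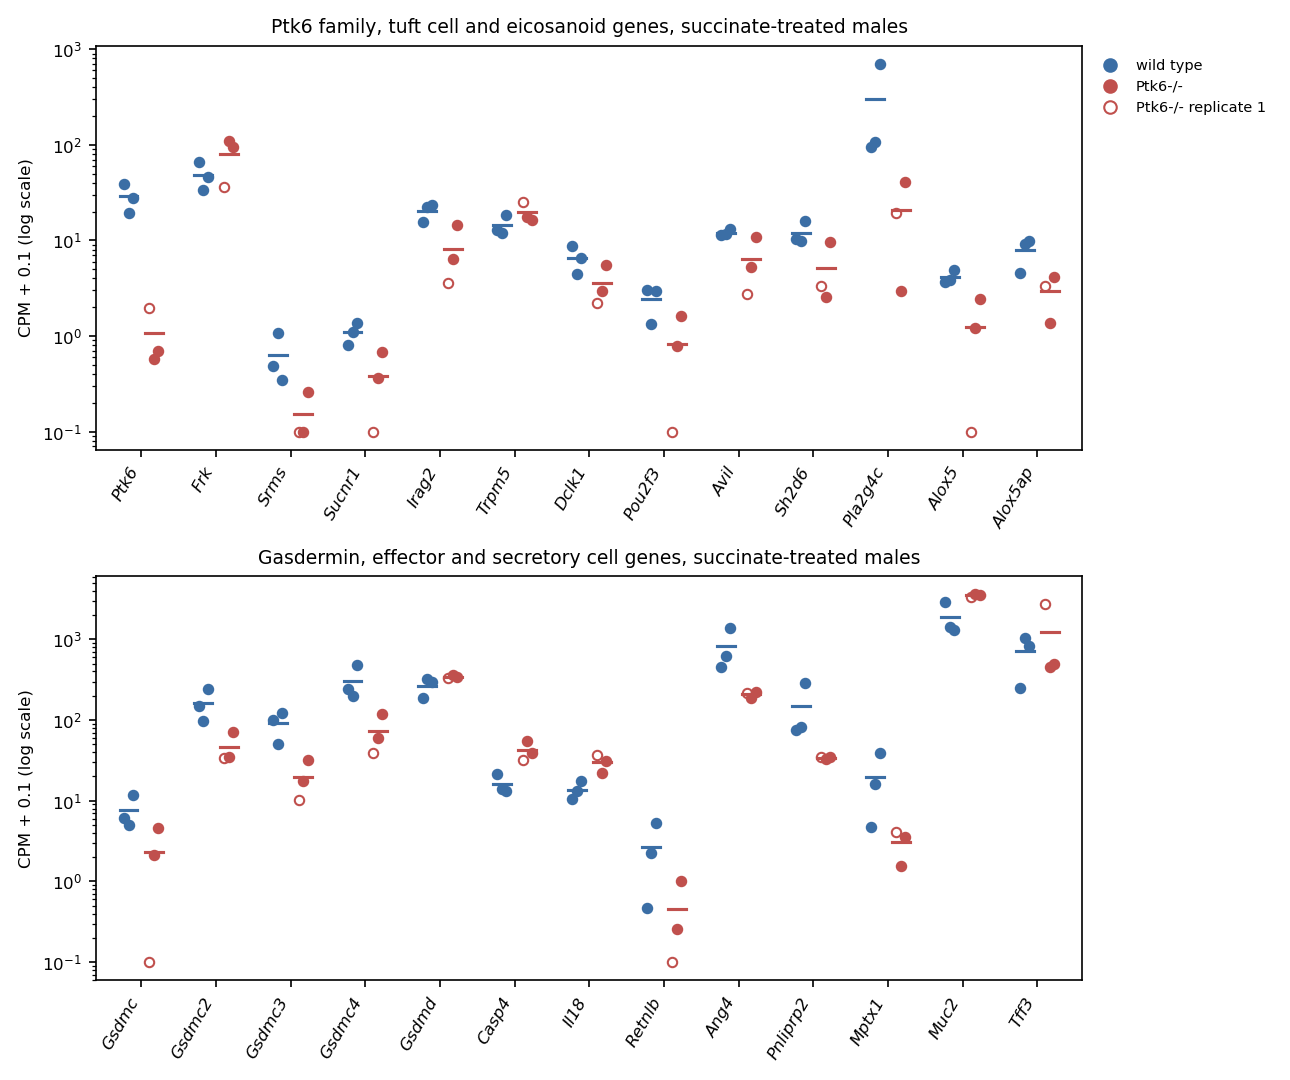
CPM + 0.1 on a log axis for each succinate-treated male, wild type in blue and Ptk6-/- in red, with the shallow Ptk6-/- replicate 1 as an open circle and bars at group means (n = 3 mice). Gsdmc2, Gsdmc3, Gsdmc4, Pla2g4c and Ang4 do not overlap between genotypes and are lower in Ptk6-/-, while Trpm5 overlaps.

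Genes of tuft cell signalling were mostly lower in Ptk6-/- males, by less than 2-fold for the median gene. Of 11 genes tested, 9 were lower and 2 higher (median log2 -0.57, or -0.47 without Ptk6-/- replicate 1). Without overlap, 5 were lower (5.79% of all genes were). Of the 5, 2 (Sucnr1 and Vmn2r26) were within the floor of the shallow library. None was called by edgeR or DESeq2. Voom called 3 lower, and 2 without Ptk6-/- replicate 1 (9.52% and 10.3% of all genes were called). The summed level of the list was 64.4, 69.7 and 83.9 CPM in wild type and 53.6, 49.9 and 59.0 CPM in Ptk6-/-. Irag2, a partner of the inositol trisphosphate receptor, had 15.6, 22.0 and 23.3 CPM in wild type and 3.47, 6.24 and 14.3 CPM in Ptk6-/- (log2 -1.30 ± 0.50). Sucnr1, the succinate receptor, had 0.70, 1.00 and 1.28 CPM in wild type and 0, 0.260 and 0.581 CPM in Ptk6-/- (log2 -1.50). Irag2 was lower in every Ptk6-/- library than in any wild type library. For Sucnr1 the count of 0 in Ptk6-/- replicate 1 allows up to 0.799 CPM, above wild type replicate 1, so that library cannot be placed. Without Ptk6-/- replicate 1 the log2 fold changes were -1.01 for Irag2 and -1.25 for Sucnr1. The cation channel Trpm5 went the other way, with 12.9, 11.9 and 18.3 CPM in wild type and 25.1, 17.3 and 16.1 CPM in Ptk6-/-, and overlapped. Plcb2, the phospholipase C upstream of Trpm5, was 6.35 to 8.70 CPM in wild type and 3.73 to 5.31 CPM in Ptk6-/-. Vmn2r26, a vomeronasal receptor of tuft cells, was at 0 in Ptk6-/- and at 0.212, 0.269 and 0.309 CPM in wild type, at which depth a difference cannot be read. In whole tissue, fewer tuft cells and less RNA per tuft cell cannot be told apart. Irag2, Rgs13, Plcb2, Alox5 and Alox5ap are also made by lymphoid or myeloid cells, and the summed B cell follicle genes were lower in the same libraries (183 to 191 CPM in wild type and 31.4 to 64.9 CPM in Ptk6-/-). The part of those cells in these levels was not tested.

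The tuft identity list had the same lean. Of 17 genes, 16 were lower and 1 was higher in Ptk6-/-, 10 did not overlap and were lower (5.79% of all genes were), and the median log2 fold change was -0.86 (-0.77 without Ptk6-/- replicate 1). The summed level overlapped, with 455, 681 and 757 CPM in wild type and 706, 384 and 432 CPM in Ptk6-/-, where Ptk6-/- replicate 1 was the second highest library. The microtubule-linked kinase Dclk1, the usual tuft cell marker, had 8.65, 4.31 and 6.50 CPM in wild type and 2.13, 2.86 and 5.41 CPM in Ptk6-/-, and overlapped. Pou2f3, the transcription factor that specifies tuft cells, had 2.90, 1.22 and 2.89 CPM in wild type and 0, 0.676 and 1.52 CPM in Ptk6-/-, and also overlapped. Avil, an actin-binding protein of the tuft cell apex, had 11.3, 11.5 and 13.1 CPM in wild type and 2.67, 5.13 and 10.8 CPM in Ptk6-/-, without overlap. Ptk6-/- replicate 3 was within or close to the wild type range in each of these genes. The adaptor Sh2d6 (log2 -1.19) did not overlap, while Bmx and Sh2d7 did. The repressor Gfi1b (log2 -0.81) was too low to place Ptk6-/- replicate 1. Spib was the only gene of the list that DESeq2 called, with 17.8, 14.9 and 18.2 CPM in wild type and 1.87, 2.45 and 6.43 CPM in Ptk6-/- (log2 -2.18 ± 0.48, adjusted p = 0.0149). This ETS factor is also made by B cells, whose follicle genes were lower in the same libraries, and the part of those cells in its level was not tested. Spib is made by M cells too. Of the 6 other M cell genes DESeq2 called 1 lower (Gp2, where 0.354% of all genes were called). Sox8, Marcksl1 and Anxa5 had log2 fold changes of -1.21, -1.07 and -0.62, and Ccl9 and Tnfaip2 had 0.03 and -0.05.

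The cytokines of the circuit were at or below the detection limit. Il25 had 6, 9 and 9 counts in wild type and 0 in each Ptk6-/- library, Il13 had 11, 0 and 7 counts in wild type and 0 in each Ptk6-/- library, and both were below the count filter. A count of 0 in 8080321 reads, as in Ptk6-/- replicate 1, allows up to 3 counts, or 0.799 CPM. Il13ra2, the decoy receptor for IL-13, had 0, 19 and 35 counts in wild type and 0 in each Ptk6-/- library. The receptors were measured well and overlapped. Il4ra had 90.2, 84.3 and 76.1 CPM in wild type and 73.3, 99.9 and 94.9 CPM in Ptk6-/-, and Il17rb, part of the IL-25 receptor, had 4.01, 3.19 and 3.53 CPM in wild type and 5.07, 2.34 and 2.64 CPM in Ptk6-/-. Over the 9 genes of this list that were tested, the median log2 fold change was 0.0991. No gene was called by edgeR or DESeq2, and voom called 2 higher (Il33 and Il1rl1), where it called 9.52% of all genes.

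Epithelial effectors of the type 2 response were split. Ang4, an antimicrobial ribonuclease of Paneth and goblet cells, had 456, 617 and 1390 CPM in wild type and 218, 185 and 220 CPM in Ptk6-/- (log2 -1.98 ± 0.49). It was called lower by DESeq2 (adjusted p = 0.0217) with or without Ptk6-/- replicate 1 (log2 -2.04 without it), did not overlap, and was even among the Ptk6-/- mice but uneven among the wild type mice. Its log2 fold change ran from -2.27 to -1.38 when each library was left out. Pnliprp2, a pancreatic lipase-related protein that intestinal epithelium also makes, had 75.8, 82.7 and 290 CPM in wild type and 34.7, 33.2 and 34.8 CPM in Ptk6-/-, with a DESeq2 adjusted p of 0.0606 and a log2 fold change of -2.13, or -2.15 without Ptk6-/- replicate 1 and -1.22 without wild type replicate 3. Retnlb, a goblet cell resistin-like protein, had 0.374, 2.17 and 5.27 CPM in wild type and 0, 0.156 and 0.901 CPM in Ptk6-/-, and overlapped. Sprr2a3, a small proline-rich protein, had 188, 420 and 1454 CPM in wild type and 238, 209 and 300 CPM in Ptk6-/-, and its log2 fold change of -1.46 was -0.30 without wild type replicate 3. The lectin Itln1 overlapped as well, with log2 -0.64. Of the 11 genes tested, 8 were lower and 3 higher, with a median log2 fold change of -0.89, and 1 was called by DESeq2 (0.354% of all genes were). Voom called 7 lower and 1 higher, or 6 lower and 1 higher without Ptk6-/- replicate 1 (9.52% and 10.3% of all genes were called).

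Goblet cell genes had no common direction, with 9 of 15 higher, 6 lower and a median log2 fold change of 0.113 (-0.0115 without Ptk6-/- replicate 1). Muc2, the gel-forming mucin, had 2881, 1422 and 1313 CPM in wild type and 3387, 3607 and 3522 CPM in Ptk6-/- (log2 0.91 ± 0.50). Its groups did not overlap, yet wild type replicate 1 was well above the other 2 wild type mice. Tff3, the trefoil peptide, had 252, 1053 and 829 CPM in wild type and 2770, 452 and 497 CPM in Ptk6-/-. Its log2 fold change turned from 0.80 to -0.61 when Ptk6-/- replicate 1 was left out. The secretory regulators Atoh1 and Spdef had log2 fold changes of -0.15 and -0.0123 and overlapped.

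Paneth cell genes other than defensins were lower in 9 of 11 cases, with a median log2 fold change of -0.46 and of -0.88 without Ptk6-/- replicate 1. Mptx1, a mucosal pentraxin, had 4.56, 15.9 and 38.5 CPM in wild type and 4.0, 1.46 and 3.42 CPM in Ptk6-/- (log2 -2.79, DESeq2 adjusted p = 0.0623). Its groups did not overlap, by a small margin, and DESeq2 called it lower when Ptk6-/- replicate 1 was left out (log2 -3.02), while without wild type replicate 3 the value was -1.84. Lyz1, Paneth cell lysozyme, had 5014, 5657 and 5262 CPM in wild type and 5681, 3645 and 2235 CPM in Ptk6-/-, and overlapped through replicate 1. The alpha-defensins summed to 20490, 57770 and 51500 CPM in wild type and to 89140, 26870 and 15090 CPM in Ptk6-/-. The highest and the lowest sum were both in Ptk6-/- mice. The median over 27 defensins, which are near-identical copies, moved from -0.0588 to -1.06 without Ptk6-/- replicate 1. None was called by edgeR or DESeq2, and voom called 3 lower over the 6 libraries and 23 lower without that library (9.52% and 10.3% of all genes were called).

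Reg3g, Reg3b and Saa1, antimicrobial and acute-phase genes, were higher in every Ptk6-/- male than in any wild type male. Reg3g, a lectin that kills Gram-positive bacteria, had 1191, 1964 and 727 CPM in wild type and 6645, 2991 and 3982 CPM in Ptk6-/- (log2 1.81 ± 0.59). Reg3b, its neighbour on chromosome 6, had 2324, 4229 and 2211 CPM in wild type and 11690, 5124 and 6580 CPM in Ptk6-/- (log2 1.42 ± 0.60). Neither gene overlapped between groups. Both were highest in Ptk6-/- replicate 1, and their log2 fold changes without it were 1.39 and 0.97. DESeq2 gave adjusted p = 0.0731 for Reg3g and 0.314 for Reg3b. The promoters of the pair, shown above, share a TATAAA motif near the start.

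Saa1, an acute-phase apolipoprotein also made by intestinal epithelium, had 3.62, 15.3 and 4.63 CPM in wild type and 301, 45.3 and 24.5 CPM in Ptk6-/- (log2 3.97 ± 1.05). It was called higher by DESeq2 (adjusted p = 0.00427) but not once Ptk6-/- replicate 1 was left out, although the remaining 2 Ptk6-/- mice still lay above all wild type mice (log2 2.12). Nos2, the inducible nitric oxide synthase, had 120, 43.6 and 23.8 CPM in wild type and 107, 965 and 231 CPM in Ptk6-/-, and overlapped (log2 2.80, DESeq2 adjusted p = 0.105). DESeq2 called it higher when Ptk6-/- replicate 1 was left out (log2 3.22 in edgeR), but replicate 2 carries the difference, and without replicate 2 it was 1.44. Il22ra1, a chain of the IL-22 receptor, had 70.1, 4.77 and 5.95 CPM in wild type and 17.3, 81.5 and 43.7 CPM in Ptk6-/-, where wild type replicate 1 again lay with Ptk6-/- replicates 2 and 3. Lcn2, lipocalin 2, had 1.55, 1.96 and 1.81 CPM in wild type and 14.4, 2.21 and 2.38 CPM in Ptk6-/-, and its log2 fold change went from 1.75 to 0.35 without the shallow library. Il22 itself had 0, 0 and 9 counts in wild type and 0, 4 and 8 counts in Ptk6-/-, too few to test. Of the 14 genes tested in the IL-22 and Reg list, 11 were higher and 3 lower, 5 did not overlap and were higher (3.04% of all genes were), and the median log2 fold change was 0.81 (0.58 without Ptk6-/- replicate 1).

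Interferon-stimulated genes were higher in 13 of 14 cases, with a median log2 fold change of 0.62 both with and without Ptk6-/- replicate 1. No member was called by edgeR or DESeq2, with or without that library. Voom called 4 higher both ways (9.52% and 10.3% of all genes were called). Zbp1, a sensor of Z-form nucleic acid, had 49.8, 41.0 and 32.3 CPM in wild type and 78.7, 73.6 and 76.6 CPM in Ptk6-/- (log2 0.89). Ifit1, an RNA-binding antiviral protein, had 18, 16.8 and 9.04 CPM in wild type and 18.1, 35.0 and 24.1 CPM in Ptk6-/-. These and Ifit3 were the 3 members higher without overlap (3.04% of all genes were), the margin for Ifit1 being 18.1 against 18 CPM.

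Among genes with a symbol, the smallest unadjusted p-values on the higher side belonged to a mixed set. A protein-coding gene with no symbol in the count table, ENSMUSG00000107877, had a smaller one, with 0.570, 0.413 and 0.507 CPM in wild type and 6.13, 11.3 and 6.75 CPM in Ptk6-/- (log2 4.02 ± 0.47, DESeq2 adjusted p = 3.44e-14). The entry 4933427D14Rik covers the same interval on the same strand and was called lower by DESeq2, with 7.41, 6.33 and 7.43 CPM in wild type and 0, 0.546 and 0.220 CPM in Ptk6-/- (log2 -4.42). The sum of both entries was 7.98, 6.75 and 7.94 CPM in wild type and 6.13, 11.8 and 6.97 CPM in Ptk6-/-, which overlapped, so the assignment of reads between them is uncertain. Plet1, a surface protein of placenta and of epithelial progenitors, had 2.49, 1.02 and 1.46 CPM in wild type and 11.7, 15.3 and 17.6 CPM in Ptk6-/- (log2 3.17 ± 0.44, edgeR adjusted p = 0.283). B3galt5, a galactosyltransferase that builds type 1 glycan chains, had 5.0, 1.72 and 2.40 CPM in wild type and 42.1, 15.1 and 27.9 CPM in Ptk6-/- (log2 3.21 ± 0.55). Tat, the liver-type tyrosine aminotransferase, had 1.97, 1.04 and 0.331 CPM in wild type and 7.2, 9.91 and 9.63 CPM in Ptk6-/- (log2 3.00 ± 0.64). DESeq2 called all 3 higher, with adjusted p = 1.27e-08, 1.96e-05 and 0.000995, and called them without Ptk6-/- replicate 1 too. Hk2, the inducible hexokinase, had 27.6, 17.2 and 13.4 CPM in wild type and 53.1, 121 and 52.4 CPM in Ptk6-/- (DESeq2 adjusted p = 0.0224). The carbonic anhydrase Car3 (log2 2.04), the serine protease Prss27 (log2 2.31) and the rod phosphodiesterase Pde6a (log2 2.55, under 3 CPM) were also called higher by DESeq2. Ddah1, Ubd and Smpdl3b, with log2 fold changes of 1.09, 1.98 and 1.13, did not overlap and were not called by edgeR or DESeq2 over the 6 libraries, while DESeq2 called Ddah1 and Smpdl3b without Ptk6-/- replicate 1.

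B cell genes were lower in Ptk6-/- males as a group. All 8 genes of the B cell follicle list were lower without overlap (5.79% of all genes were), 4 were called by DESeq2 over the 6 libraries (0.354% of all genes were) and 6 without Ptk6-/- replicate 1 (0.732%), and the median log2 fold change was -2.08 (-2.22 without that library). Their summed level was 191, 183 and 191 CPM in wild type and 39.4, 31.4 and 64.9 CPM in Ptk6-/-. Ighm, the IgM constant region, had 94.2, 87.8 and 91.5 CPM in wild type and 14.7, 17.4 and 30.8 CPM in Ptk6-/- (log2 -2.11 ± 0.35, or -1.95 without Ptk6-/- replicate 1, DESeq2 adjusted p = 6.33e-05). Ms4a1, which encodes CD20, had 10.6, 4.86 and 7.32 CPM in wild type and 0, 0.650 and 1.88 CPM in Ptk6-/-. Pax5, the factor that maintains B cell identity, had 9.90, 9.03 and 10.8 CPM in wild type and 0.800, 0.468 and 1.72 CPM in Ptk6-/- (log2 -3.25 ± 0.55). The 3 wild type mice were close to each other in Ighm and Pax5, and the gap to the Ptk6-/- mice was wide. Cd79a and Cd22, both parts of B cell receptor signalling, were called lower by DESeq2 (log2 -1.75 and -2.02). The complement receptor Cr2 of follicular dendritic and B cells had 7.29, 5.46 and 5.25 CPM in wild type and 0, 0 and 1.16 CPM in Ptk6-/-. The follicle chemokine Cxcl13 had 8.78, 5.28 and 8.25 CPM in wild type and 1.60, 1.25 and 3.73 CPM in Ptk6-/-.

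Other lymphoid genes were described from lists drawn up after these values had been seen, so their counts carry no independent weight. In a further list of 12 B cell genes, 7 were called lower by DESeq2 (0.354% of all genes were called), among them H2-Ob (log2 -2.36), Cd83 (log2 -2.01) and the chemokine receptor Cxcr4 (log2 -2.16). Of 8 immunoglobulin constant regions, 4 were called lower (Ighm, Ighd, Ighg1 and Ighg3), against the same 0.354%. Ighd had 23.1, 12.8 and 13.6 CPM in wild type and 1.60, 0.911 and 4.49 CPM in Ptk6-/-. Igha, the product of gut plasma cells, did not share this, with 6217, 11330 and 7245 CPM in wild type and 16140, 6516 and 10060 CPM in Ptk6-/- (log2 0.40 ± 0.63). Ighv1-18 ran opposite to the constant regions, with 4.38, 3.70 and 3.31 CPM in wild type and 6.93, 86.1 and 98.4 CPM in Ptk6-/-. Its high level was in 2 of the 3 Ptk6-/- mice, and variable segments share near-identical sequence, so assignment of its reads is uncertain. Gp2, the M cell glycoprotein over lymphoid follicles, had 2.38, 2.40 and 1.43 CPM in wild type and 0, 0.390 and 0.200 CPM in Ptk6-/- (DESeq2 adjusted p = 0.0171). T cell genes were not lower as a list. Of 8 tested, 5 were higher and 3 lower (median log2 0.34), the summed level was 126, 172 and 138 CPM in wild type and 229, 176 and 170 CPM in Ptk6-/-, and Cd3e had 10.4, 14.2 and 13.2 CPM in wild type and 9.60, 10.6 and 9.77 CPM in Ptk6-/-. Whether the pieces of jejunum held the same amount of lymphoid tissue was not tested.

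Macrophage, neutrophil and sinus genes were split, and these lists too were drawn up after the values had been seen. Of 9 sinus genes, 7 were lower and 2 higher (Lyve1 and Cd209b, log2 0.17 and 0.07), and DESeq2 called 4 lower (0.354% of all genes were called). Of the 6 neutrophil granule genes tested, 5 were lower and 1 higher, and 2 were called lower. The higher gene was Ltf (log2 1.74, or 0.491 to 2.29 when each library was left out). In these lists Clec4g, Marco, Cd207, S100a8, Ngp, Elane and Mpo had no count in any Ptk6-/- library. They passed the count filter through wild type alone and could only be counted as lower. Clec4g had 9.18, 10.3 and 8.42 CPM in wild type and no count in any Ptk6-/- library, so that it was at least 29.8-fold lower against a floor of 3 counts per library. The calprotectin subunit S100a8 had 3.16, 3.64 and 3.31 CPM in wild type and none in Ptk6-/-, at least 10.8-fold lower. The scavenger receptor Marco, the chitinase-like Chil3 and the neutrophil granule protein Ngp were likewise without a count in Ptk6-/-, at least 6.57-fold, 4.91-fold and 4.54-fold lower. These are the genes that, as described above, were present in Ptk6-/- control males and near absent in 1 wild type control male. Wfdc17, a macrophage protease inhibitor, had 10.9, 12.3 and 11.2 CPM in wild type and 0, 0.234 and 1.00 CPM in Ptk6-/-. Of 12 chemokines, 8 were lower and 4 higher. The highest log2 fold change was 2.32, for Ccl20, which overlapped and ran from -1.59 to 2.96 when each library was left out. Ccl5 was higher without overlap (log2 0.94). DESeq2 called Ccl2, Ccl4, Ccl7 and Cxcl2 lower, and Ccl4 had 5.6, 5.56 and 6.48 CPM in wild type and 1.60, 0.859 and 0.681 CPM in Ptk6-/-. Clu, a secreted chaperone expressed by follicular dendritic and other stromal cells, had 85, 82.3 and 82.5 CPM in wild type and 26.9, 21.6 and 27.4 CPM in Ptk6-/- (log2 -1.72 ± 0.27, DESeq2 adjusted p = 1.57e-05). Both groups were tight in Clu, and its log2 fold change without Ptk6-/- replicate 1 was -1.80. Mrc1, the macrophage mannose receptor, overlapped, with 7.04, 6.32 and 5.69 CPM in wild type and 4.27, 7.68 and 6.17 CPM in Ptk6-/-.

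**Figure D3:**
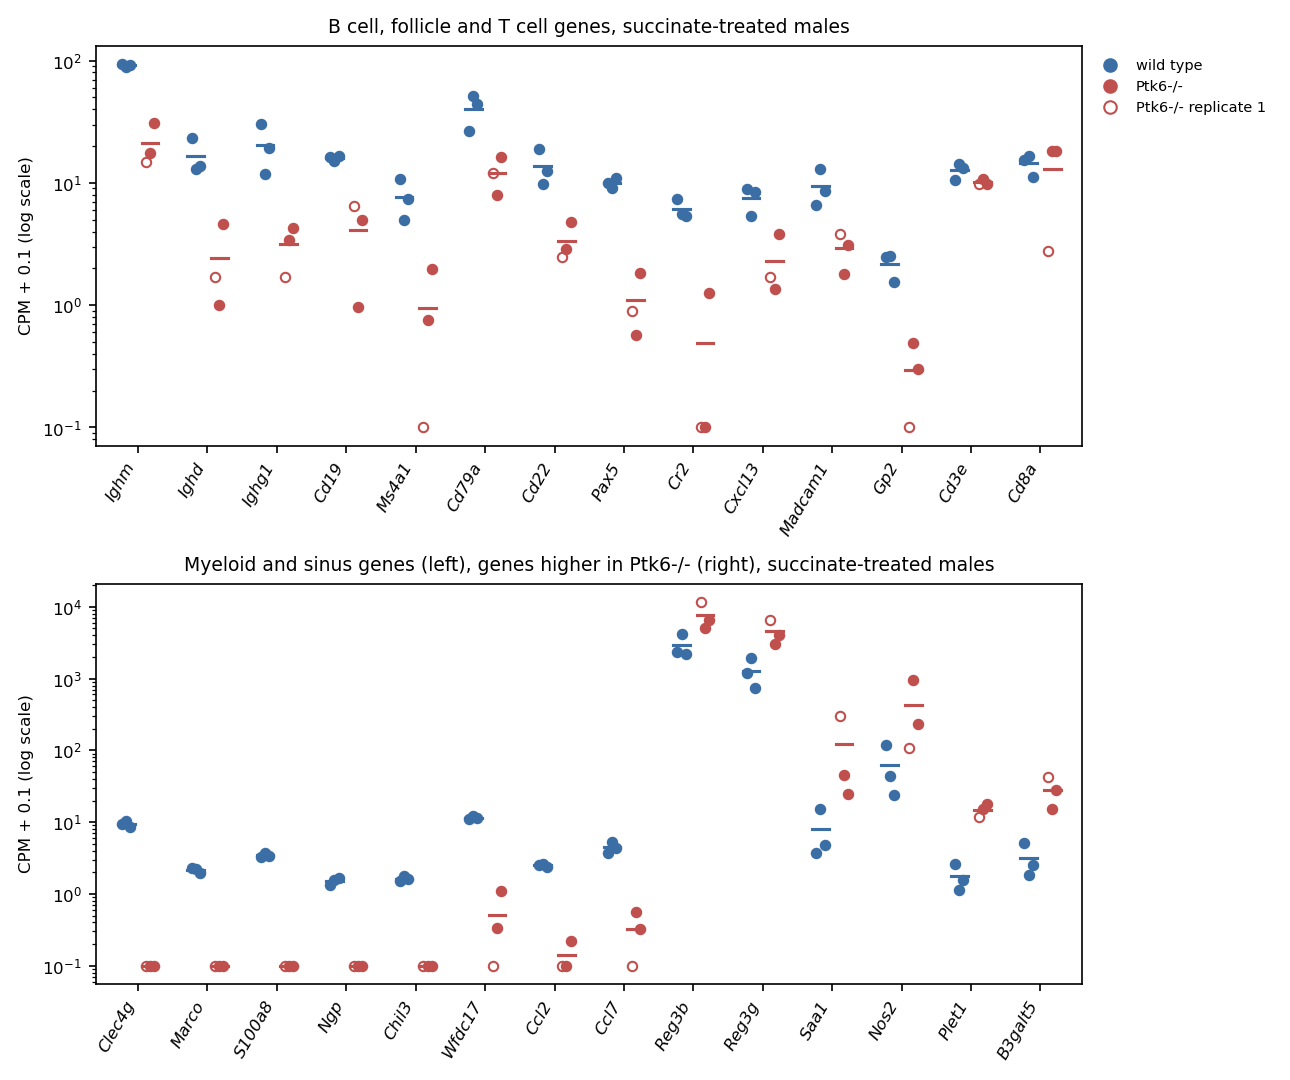
CPM + 0.1 on a log axis for each succinate-treated male (wild type blue, Ptk6-/- red, Ptk6-/- replicate 1 open, bars at group means, n = 3 mice), with B cell, follicle, M cell and T cell genes above and myeloid, sinus and Ptk6-/--high genes below. Points at 0.1 are libraries without a count, as all 3 Ptk6-/- libraries are for Clec4g, Marco, S100a8, Ngp and Chil3.

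Markers of other tissues in the samples were uneven between mice. Smooth muscle genes summed to 1768, 2956 and 5890 CPM in wild type and to 2815, 2494 and 2589 CPM in Ptk6-/-, and all 7 genes overlapped, with a median log2 fold change of -0.345. Wild type replicate 3 thus held the most muscle RNA, and it was also the library with the highest Pla2g4c, Gsdmc3 and Ang4. Haemoglobin and other erythrocyte genes summed to 51.2, 276 and 282 CPM in wild type and to 923, 82.4 and 94.0 CPM in Ptk6-/-. Adipocyte genes summed to 27.6, 72.3 and 111 CPM in wild type and to 397, 87.2 and 150 CPM in Ptk6-/-, and striated muscle genes to 26.1, 80.0 and 126 CPM in wild type and to 253, 62.4 and 57.2 CPM in Ptk6-/-. Ptk6-/- replicate 1 was the highest of the 6 libraries in the last 3 lists. Lung genes, and the 3 of 9 pancreas genes found among the counted genes, were near 0 in every library. The part of any of these tissues in the gene differences was not tested.

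Enterocyte genes leaned higher in Ptk6-/- males but were not called by edgeR or DESeq2, while voom called 4 of them higher (9.52% of all genes were called). Of 20 digestive and absorptive genes, 15 were higher and 5 lower, with a median log2 fold change of 0.42 (0.62 without Ptk6-/- replicate 1, and on the FPKM scale -0.35 against -0.43 for all genes). A single gene was higher without overlap over the 6 libraries (3.04% of all genes were), and 12 were without that library (12.4% of all genes). That gene was the brush-border enzyme Mgam, with 1142, 739 and 575 CPM in wild type and 1377, 1917 and 1290 CPM in Ptk6-/- (log2 0.90 ± 0.44). Sis, sucrase-isomaltase, had 875, 429 and 390 CPM in wild type and 269, 1091 and 1092 CPM in Ptk6-/-. Wild type replicate 1 was again nearest to Ptk6-/- replicates 2 and 3. Slc13a2, an apical carrier of succinate and other dicarboxylates, had 115, 91.8 and 89.0 CPM in wild type and 132, 226 and 226 CPM in Ptk6-/- (log2 0.98 ± 0.34, DESeq2 adjusted p = 0.434). Its groups did not overlap, and DESeq2 called it higher without Ptk6-/- replicate 1 (log2 1.16 in edgeR), while the succinate dehydrogenase subunits Sdha, Sdhb, Sdhc and Sdhd all overlapped, with log2 fold changes from -0.47 to -0.17.

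Lists for other programmes lay near the centre of all genes or moved with Ptk6-/- replicate 1. The proliferation and stem cell list had a median log2 fold change of -0.26, and Mki67 and Lgr5 had 0.12 and 0.10. Sterol synthesis was higher in 11 of 12 genes (median 0.28), fatty acid oxidation had a median of -0.21, the unfolded protein response -0.13 and the circadian clock -0.21, and edgeR and DESeq2 called no member of these lists over the 6 libraries. Without Ptk6-/- replicate 1 DESeq2 called the sterol enzyme Sqle higher (log2 1.00 in edgeR). Immediate early genes, which respond to handling, had a median of -0.42, although Fosb was higher without overlap (log2 1.20). The enteroendocrine list went from 0.34 to -0.40 without Ptk6-/- replicate 1, the ileal list of distal genes from 0.58 to -0.0388, the ribosomal proteins from 0.135 to -0.76 and the replication histones from 2.47 to 0.0445. The bile acid binding protein Fabp6 shows how, with 378, 1793 and 2537 CPM in wild type and 7994, 857 and 824 CPM in Ptk6-/-. On the deposited FPKM values, the median log2 fold change over all genes was -0.43, and against it the tuft identity, type 2 effector and B cell follicle lists were still lower (medians of -0.84, -1.30 and -1.64), the tuft signalling list was close to it (-0.54), and the IL-22 and Reg and the interferon lists still higher.

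**Figure D4:**
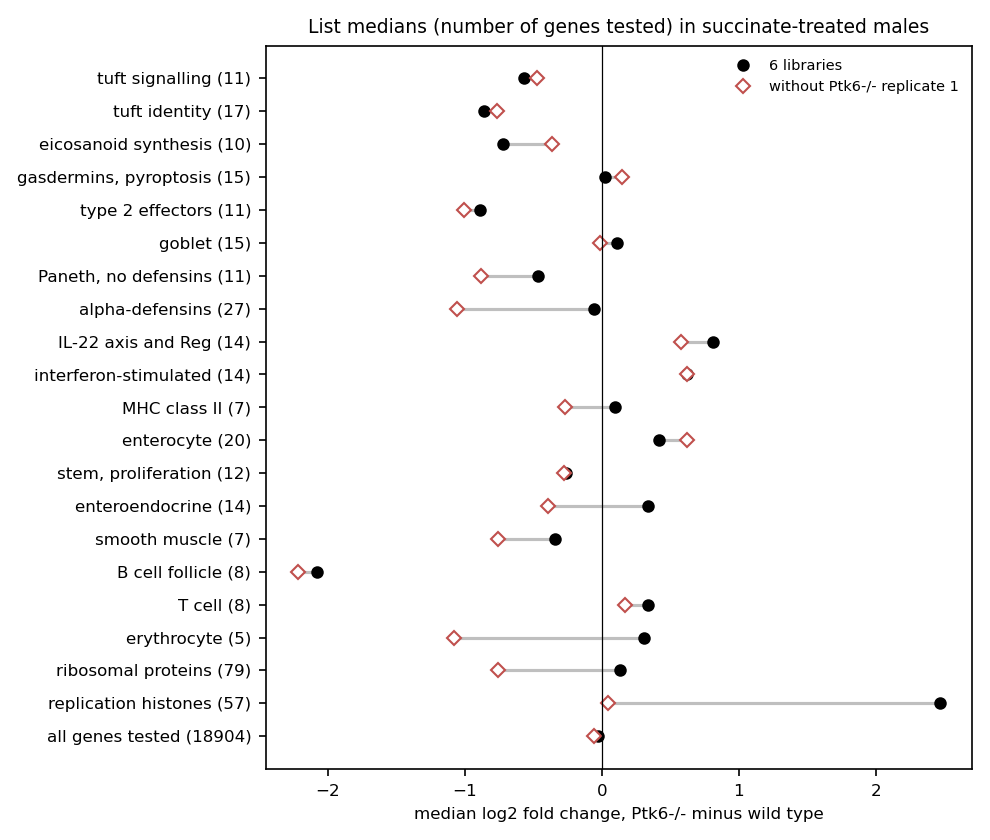
Median log2 fold change (Ptk6-/- minus wild type) of selected gene lists and of all genes tested in succinate-treated males, over the 6 libraries (filled circles) and without Ptk6-/- replicate 1 (open diamonds), with the number of genes tested in brackets. Lists not shown include the neutrophil granule, sinus, M cell and further B cell lists. The B cell follicle list lies at -2.08 and -2.22, and the replication histones go from 2.47 to 0.0445.

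Genes around the deleted locus were examined as a group. Of 72 genes within 1 Mb of Ptk6, 51 were tested, and none was called by edgeR or DESeq2. Their log2 fold changes were higher for 23 and lower for 28, with a median of -0.059. The libraries did not overlap for 2 genes higher and 6 lower (3.04% and 5.79% of all genes). The collagen gene Col20a1 was 1 of the 2, with 4.46, 5.42 and 5.40 CPM in wild type and 24, 11.9 and 7.93 CPM in Ptk6-/-.

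The succinate males were set beside control males and succinate-treated females to ask whether the genotype difference belonged to this sex and treatment. The levels in this paragraph and the next are CPM scaled over all 24 libraries. In control males edgeR called 142 of 19218 genes for genotype (0.739%), or 211 of 19134 without wild type control replicate 1, the library rich in Rn18s-rs5, and in succinate-treated females 0 of 19180 (0%, 867 at an unadjusted p under 0.05). The difference between the genotype effects was tested by interaction terms. For sex under succinate, edgeR called 0 of 20490 genes (0%, 993 at an unadjusted p under 0.05, smallest adjusted p 0.95), and DESeq2 called 46 (0.224%). For succinate against water in males, edgeR called 0 of 20340 genes (0%, 772 at an unadjusted p under 0.05, smallest adjusted p 0.0749), and DESeq2 called 61 (0.3%). Without wild type control replicate 1, edgeR called 5 for succinate (Clec4g, Gm47428, Ngp, Marco and S100a8), genes near absent from that library or from the Ptk6-/- succinate males. By edgeR over all libraries, no gene's genotype difference was shown to depend on sex or on succinate. EdgeR did not call the deleted Ptk6 in the succinate males, so the lack of calls does not show that genotype effects were equal.

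The levels of Gsdmc3, Pla2g4c and Irag2 in the control males and in the females place these values. Gsdmc3 was 17, 28.6 and 24.4 CPM in wild type and 24.2, 25.8 and 17.1 CPM in Ptk6-/- control males. With succinate it was 109, 56.9 and 132 CPM in wild type and 10.4, 19.1 and 35.3 CPM in Ptk6-/- males. The Ptk6-/- succinate males thus lay around the control level and the wild type succinate males above it. In succinate-treated females Gsdmc3 was 425, 250 and 146 CPM in wild type and 357, 659 and 679 CPM in Ptk6-/-, above every male. The interaction with sex was -3.23 on the log2 scale (edgeR adjusted p = 0.95) and that with succinate -2.09 (adjusted p = 0.992). Pla2g4c was 1.32 to 13.4 CPM in the control males, 521 to 1736 CPM in wild type females and 1629 to 2804 CPM in Ptk6-/- females on succinate. On this scale it was 102, 119 and 768 CPM in wild type and 19.8, 3.13 and 44.6 CPM in Ptk6-/- males on succinate, so that wild type replicate 3 lay inside the range of the wild type females, with an interaction with sex of -4.88 (adjusted p = 0.95). Irag2 was 6.12 to 12.4 CPM in the control males, 16.9, 24.8 and 25.5 CPM in wild type and 3.57, 6.83 and 15.8 CPM in Ptk6-/- males on succinate, and 21.4 to 75.6 CPM in the succinate-treated females of both genotypes.

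Some of the genes higher in Ptk6-/- succinate males were also higher in Ptk6-/- control males, which are separate mice. B3galt5 was 1.78, 4.76 and 3.28 CPM in wild type and 20.2, 25.4 and 62.9 CPM in Ptk6-/- control males, where edgeR called it (log2 3.39, adjusted p = 0.0234, or 3.18 and 0.0305 without wild type control replicate 1). In succinate-treated females it was at most 3.60 CPM in either genotype. Muc2 was 2252, 1680 and 1447 CPM in wild type and 4163, 4321 and 5124 CPM in Ptk6-/- control males, where edgeR called it too (log2 1.31, adjusted p = 0.0378, or 1.56 and 0.0276 without that library). Tat leaned higher in Ptk6-/- control males (log2 1.97, edgeR adjusted p = 0.0761) and in Ptk6-/- succinate-treated females (log2 3.00, edgeR adjusted p = 0.931), and was called in neither. Plet1 differed less in control males, with 1.94, 3.23 and 2.41 CPM in wild type and 3.54, 2.39 and 8.02 CPM in Ptk6-/-, which overlapped, and was 0.584 to 1.70 CPM in the females. Saa1 was 6.22 to 22.9 CPM in control males of both genotypes and 1.06 to 17.2 CPM in the females, so that the 3 Ptk6-/- succinate males, at 310, 49.5 and 27.1 CPM, were above all 15 other libraries of these groups. Pax5 varied by more than 10-fold among control males of either genotype, with 6.23, 1.91 and 0.506 CPM in wild type and 0.477, 6.63 and 0.261 CPM in Ptk6-/- control males. Values as low as those of the Ptk6-/- succinate males were therefore found in control mice of both genotypes. Of other genes lower on succinate, edgeR called Iqcg and Ighg1 lower in Ptk6-/- control males too (log2 -3.55 and -2.655, adjusted p = 0.0229 and 0.0383). Gsdmc3 and Pla2g4c were not called there (log2 -0.078 and 1.34).

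**Figure D5:**
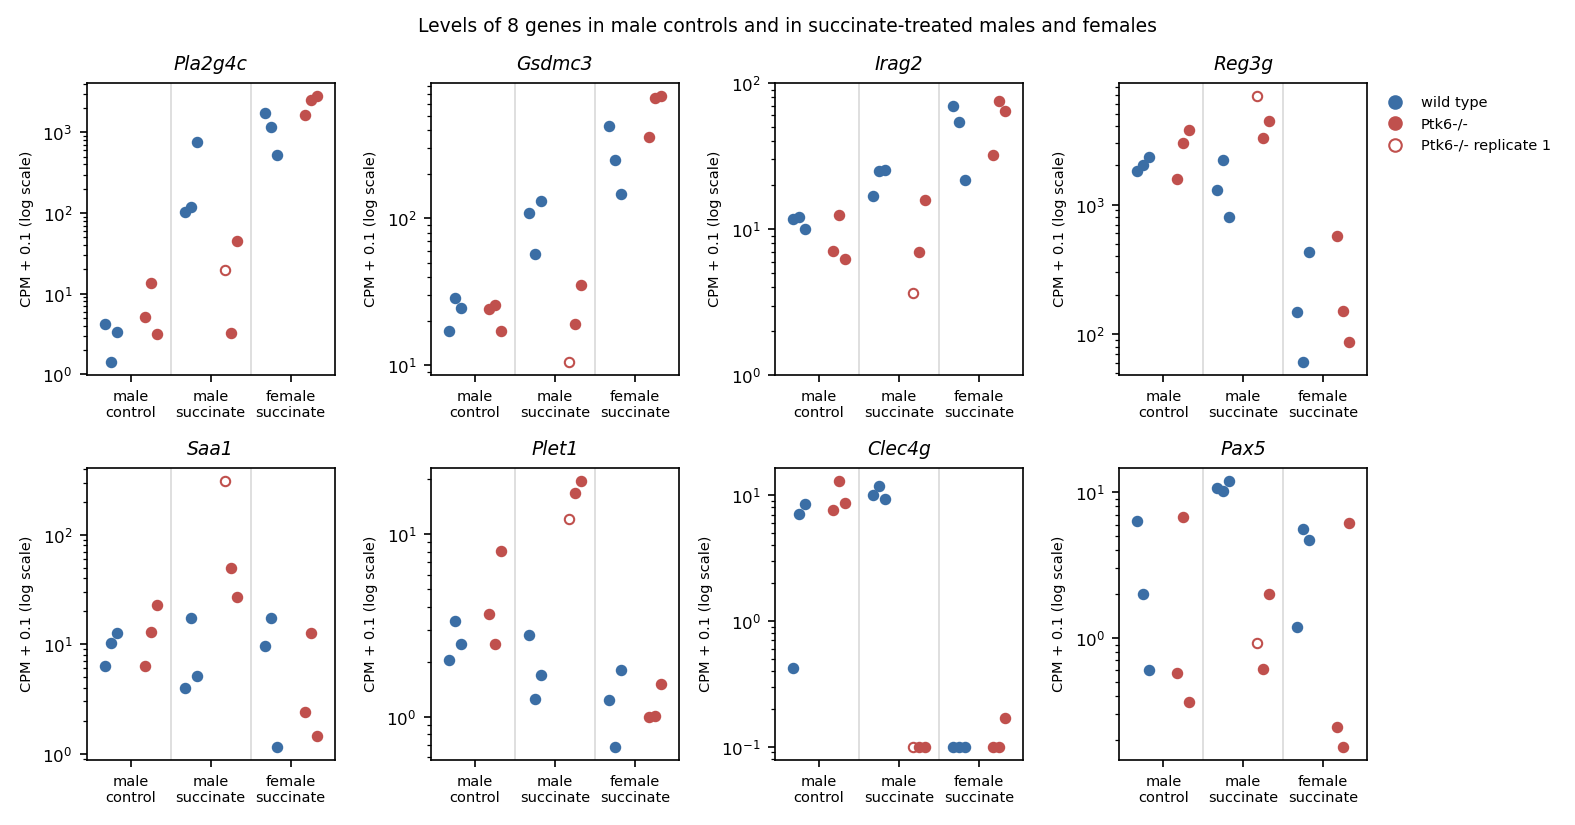
CPM + 0.1 (log axis, scaled over all 24 libraries) of 8 genes in control males, succinate-treated males and succinate-treated females, wild type in blue and Ptk6-/- in red, 1 point per mouse (n = 3), Ptk6-/- succinate male replicate 1 open. Gsdmc3 and Pla2g4c are highest in females, and Clec4g is near 0 in Ptk6-/- succinate males, in all succinate-treated females and in 1 wild type control male.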

How the data were processed

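Poly(A) RNA of distal jejunum was sequenced as stranded libraries. The authors trimmed reads, aligned them with HISAT2 and assembled and counted transcripts with StringTie (build GRCm39 in the submitters' processing notes). They deposited a table of read counts per gene (56691 genes) and a table of FPKM values, normalised by the authors for depth and transcript length, which also pairs identifiers with symbols. Counts have no molecular identifiers, and Rn18s-rs5 was kept in the totals.

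The 6 male succinate libraries were fitted alone with edgeR 4.0.16 (R 4.3.3, TMM scaling, quasi-likelihood test), on genes that reached 10 counts in 3 or more libraries. A call needed an adjusted p (Benjamini-Hochberg) below 0.05 together with a 2-fold difference. p-values measure the spread between 3 mice per group, 1 library each. The script was tested on simulated data. Recovery of most changed genes was required only at a low spread between mice (dispersion 0.05), below the 0.241 of these libraries. At the measured spread only the direction and the median fold change were required. Alternatives were DESeq2 1.42.0, limma 3.58.1 (voom with quality weights, and log2(FPKM + 1) or log2(FPKM + 0.1) at a mean FPKM of at least 0.5), other scaling, filters, a gene length offset, thinning to 8080321 counts, all 24 libraries in 1 fit, a replicate block and leaving out each library. Interactions used 12 libraries each.

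The comparison, the gene lists and the alternatives were chosen with earlier results of these data known, and 6 immune lists and the list of Ptk6 neighbours were drawn up after the values here were seen. Named are Ptk6, Frk and Srms, leading members of each intestinal list, called list members, and per direction up to 12 genes with the smallest p among those with no overlap between groups and a symbol that is no Gm number, Rik, clone, pseudogene or predicted name. Other genes named were chosen after their values were seen. Promoter sequences are from RefSeq, GRCm38.p6, while gene coordinates are those of the deposited files (GRCm39). No column of the authors' own comparisons was used.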

Additional observations from a re-analysis of the deposited data

How the results depend on the processing

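No call of the edgeR test on the 6 libraries could be lost, since it made none. It also called 0 genes with DESeq2's size factors (515 at an unadjusted p under 0.05), with 10 counts in every library (252), with a gene length offset (661) and after thinning (377). DESeq2 called 67 genes, no filter on low counts 5 (Clec4g, S100a8, Ptk6, Defa-ps17 and 1 unnamed gene), voom with quality weights 1799, log2(FPKM + 1) 13, log2(FPKM + 0.1) 4, and all 24 libraries in 1 fit 1 (Ptk6). Leaving out each library gave 0 to 2 calls, the 2 without Ptk6-/- replicate 1. Without that library, and chosen after seeing the data, DESeq2 called 138 genes and voom 1946. Replicate numbers did not pair the mice (correlations of same-numbered deviations -0.334, -0.257 and -0.17), and with a replicate block edgeR called 0 genes (290 at an unadjusted p under 0.05), 0 with the length offset added (421), and 0 for either interaction. The sex interaction gave 46 calls by DESeq2. In edgeR it gave 0 with all libraries and 0 without each library in turn. The succinate interaction gave 61 calls by DESeq2, 2 by voom (Gpihbp1 and Fam131a) and 0 to 5 by edgeR without 1 library. The 5, without wild type control male replicate 1, were Clec4g, Gm47428, Ngp, Marco and S100a8.

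Among single genes, 6855 values under alternatives kept their direction and side of the threshold, and 368 kept their direction and passed the threshold. The direction changed for the rest, 961 values without a call in either fit and 22 values with a call. Voom with quality weights turned Hba-a1 (log2 -1.62), Hba-a2 (-1.51), Hbb-bs (-1.36) and Hbb-bt (-1.37). Voom without Ptk6-/- replicate 1 turned these (-1.72, -1.61, -1.43 and -1.42) and Spink4 (-1.34), Defa34 (-1.14), Defa38 (-1.47), Defa30 (-1.40), Defa23 (-1.61), Defa39 (-1.40), Defa5 (-1.29), Defa29 (-1.22), Defa43 (-1.13), Defa42 (-1.14), Defa35 (-1.05), Pyy (-1.10), Fabp6 (-1.33) and Tnnt2 (-1.43). The cause was not tested. With 8080321 counts, a count of 0 in Ptk6-/- replicate 1 still allows up to 0.799 CPM.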

Other observations

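Some further genes that DESeq2 called were outside the lists and were chosen after their values were seen. Gdf15, a stress cytokine, had 3.39, 4.81 and 2.65 CPM in wild type and 0, 0.364 and 0.421 CPM in Ptk6-/- (DESeq2 adjusted p = 0.000126). Iqcg, a protein of motile cilia, had 0.879, 10.7 and 4.78 CPM in wild type and 0, 0.442 and 0.581 CPM in Ptk6-/-. Igkv4-80, a kappa light chain variable segment, ran from 1.37 to 11.7 CPM in wild type and from 0 to 0.338 CPM in Ptk6-/-, while Igkv14-126 was 0.197 to 0.391 CPM in wild type and 0, 10.8 and 2.38 CPM in Ptk6-/-. Igkv14-126 overlapped between groups.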
